A study of Schizosaccharomyces pombe with 4 samples.

Results

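Transcript levels of fission yeast diploids lacking the histone variant H2A.Z were compared with those of wild type 1.5 h after nitrogen was withdrawn to start meiosis. The comparison rested on 2 of the 4 arrays of the study, 1 for each genotype, and took in every gene with a name of its own on the array. These were 2899 genes among 4999 probe sets, and no measured value chose them. Of these genes, 2331 lay above a floor on at least 1 of the 2 arrays, the floor being the 25th percentile of each array (10.12 for wild type, 10.10 for the deletion). Counts refer to these 2331 genes unless stated otherwise.

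All cells were h+/h- diploids of Schizosaccharomyces pombe, and both genotypes carried ade6-210/216, his5-303/+ and leu1-32/+. The deletion diploids were also ura4-D18/ura4-D18 and had lost both copies of pht1, the H2A.Z gene, each replaced by a ura4+ marker (pht1D::ura4+/pht1D::ura4+). The same 2 genotypes were also sampled at 3 h, and those arrays are given beside the 1.5 h values. Poly(A) RNA was purified, labelled as cRNA and hybridised to Affymetrix arrays. All values are log2 values after RMA, a method that corrects background, gives all arrays the same distribution of values and joins the probes of a set into 1 value. A difference is the deletion value minus the wild-type value at the same time, and a difference of 1 log2 unit is 2-fold.

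H2A.Z is a variant of the core histone H2A that the SWR1 remodelling complex places in nucleosomes, often next to gene starts. In fission yeast, loss of nitrogen turns on the transcription factor Ste11, which drives the mating pheromone pathway and the meiotic regulator Mei2. Mei2 then blocks Mmi1, the protein that sends many meiotic transcripts to decay in growing cells, and the forkhead factor Mei4 later turns on the genes of the meiotic divisions and of the spore. Starved h+/h- diploids start meiosis without mating, and the cells of a culture do not all reach the same step at once.

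With 1 array in each group there was no replicate check, no test could be made, and the number of arrays limits the precision of every value. The labels do not say whether the 1.5 h and 3 h samples of a genotype came from 1 culture. Because RMA gives the arrays a common distribution, a value says how abundant a transcript was beside others on the array, and a difference in total mRNA is not seen. A higher value in such a population can mean more cells in a state or more RNA in each cell, and these cannot be told apart. Levels of different probe sets were not compared with each other.

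The deleted gene read 12.70 in wild type, against 7.37 in the deletion at 1.5 h, and 12.86 and 7.36 at 3 h. Both deletion arrays thus lay far below both wild-type arrays, and the 1.5 h difference of pht1 was -5.32, or at least 40.1-fold. The pht1 signal of 7.37 was taken as the level of an absent transcript, so any difference whose lower array read under 8.37, 1 log2 unit above it, is given as "at least". The marker gene ura4, present at its own place in wild type and at the pht1 locus in the deletion, read 12.70 in wild type, against 12.00 in the deletion. The measured genes next to pht1 differed little, with cdc2, the cell cycle kinase gene, at 0.07 and shy1, a gene of cytochrome oxidase assembly, at -0.30.

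Most transcripts differed little between the genotypes, while a small set of meiotic and sporulation transcripts was many times more abundant in the deletion. The median difference was -0.03, the middle 50% of genes lay between -0.20 and 0.12, and 2035 genes (87.3%) lay within 0.5 log2 units of 0. At least 2-fold higher in the deletion were 60 genes (2.57%), and at least 2-fold lower were 21 (0.901%). The higher side reached much further, with 32 genes past 3-fold and 10 past 8-fold, whereas pht1 alone was past 3-fold on the lower side. Of the 60 higher genes, 42 belonged to a list of meiotic or sporulation genes, against 181 of all 2331 (7.76%). Lists and members were chosen with earlier results of these data known, so part of such an overlap can follow from that choice. Of the 21 lower genes, 1 did, and 5 were in lists of chromatin genes, against 4.93% of all 2331. These 5 were the deleted pht1 itself, swc5, sgf73, arp9 and iec3. For 38 of the 60 the wild-type array lay under the floor, so these genes were counted through the deletion array, where they were high. For 11 of the 60, the wild-type array read under 8.37, so their differences are lower bounds.

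**Figure D1:**
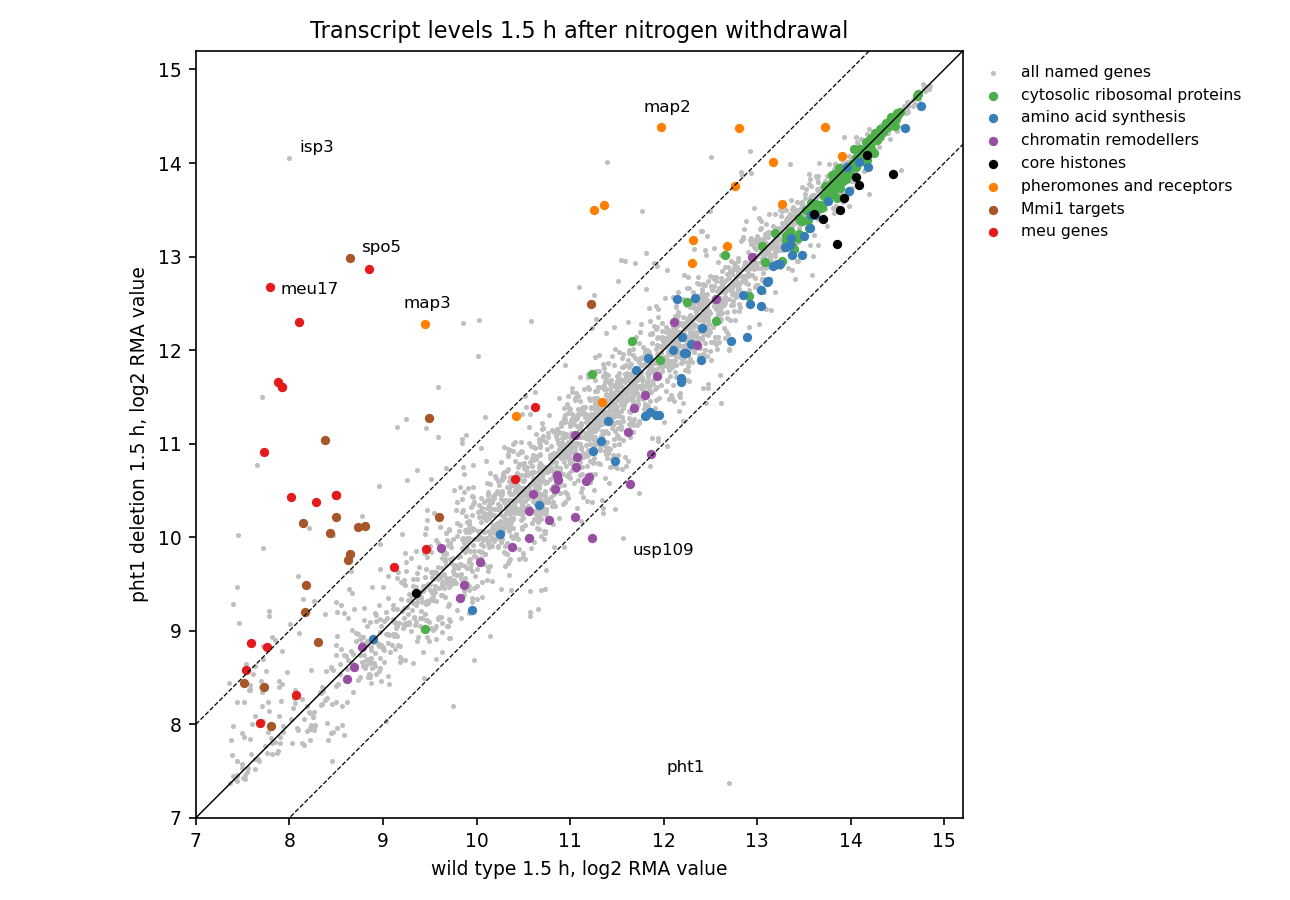
Level of each named gene in wild type (horizontal) and in the pht1 deletion (vertical) 1.5 h after nitrogen withdrawal, in log2 RMA values from 1 array each, with equality as a solid line and 2-fold differences as dashed lines. Pheromone, Mmi1 target and meu genes lie above the diagonal, ribosomal protein genes lie along it near the top, and amino acid synthesis, remodeller and histone genes lie mostly just below it.

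Pheromone genes were higher in the deletion throughout, 0.87 log2 units in the median of 15 measured genes that make, export, sense or degrade the mating pheromones. All 15 were higher, against 44% of all genes, 11 were at least 1.5-fold higher, against 4.85%, and 5 were at least 2-fold higher. The largest differences were those of map3, the M-factor receptor, map2, the P-factor precursor, sxa2, the carboxypeptidase that degrades P-factor, and map4, a cell adhesion protein. In wild type, map3 read 9.45 at 1.5 h and 11.04 at 3 h, and in the deletion 12.28 and 12.70. The deletion at 1.5 h was thus already above wild type at 3 h for map3, and its difference was 2.83. The P-factor gene map2 read 11.97 and 13.78 in wild type, against 14.38 and 14.67 in the deletion, a 1.5 h difference of 2.42. Again only the wild-type 1.5 h array stood low, with the other 3 arrays between 13.78 and 14.67.

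Genes of both mating types took part, as a diploid of this kind carries both. The P-cell genes map2, map3 and map4 were at 2.42, 2.83 and 2.18, and their mean log2 level was 10.93 in wild type, against 13.40 in the deletion at 1.5 h. Of the M-cell genes, the P-factor receptor gene mam2 was at 0.84, the M-factor exporter gene mam1 at 0.63, and the M-factor genes mfm1, mfm2 and mfm3 at 0.66, 0.16 and 1.56. The mean level of 6 M-cell genes, these 5 and sxa2, was 12.86 in wild type, against 13.88 in the deletion. The M-factor genes are near-identical copies whose probe sets can read each other's transcripts, so their separate values are uncertain. The nearest to 0 was krp1, which codes for a pheromone precursor protease, at 0.10.

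The signalling chain behind the receptors was higher as well for most of its genes. Of 18 measured genes of the pheromone MAP kinase pathway and cell fusion, 14 were higher and 4 lower, with a median of 0.74. Of all 2899 genes, 44.2% were higher. Above the floor lay 16 of the 18, 14 of them higher, with a median of 0.92. Of these 16, 10 were higher by 1.5-fold or more, against 4.85% of all genes, and 6 by 2-fold or more, against 2.57%. The deletion alone passed the floor for 4 of the 16. In order along the pathway, gpa1, the receptor-coupled G protein subunit, was at 0.87, ste6, the exchange factor for Ras1, at 1.23, and ras1 itself at 0.49. The kinase genes followed with byr2 at 0.22, its partner ste4 at 0.97, byr1 at 0.56 and spk1, the MAP kinase, at 1.04. The largest differences of the list were in genes that act when cells fuse. These were the claudin-like genes dni1 (2.44) and dni2 (1.56), the membrane fusion gene prm1 (1.58) and the formin gene fus1 (1.92). For dni1 and fus1 wild type at 1.5 h lay under the floor (9.85 and 10.02), so both were counted through the deletion array. Whether fusion genes differed more than earlier steps was not tested. Lower were scd1, the exchange factor of Cdc42, at -0.61 and ral2 at -0.61, and these were the only 2 of the 16. The genes of the list below the floor were lower too.

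At 3 h most of this difference was no longer seen. The same 15 pheromone genes had a median of 0.06 with 9 higher, and the 16 pathway genes had a median of 0.14 with 11 higher. Of all genes, 46.5% were higher at 3 h. For fus1 the wild-type arrays read 10.02 at 1.5 h and 11.43 at 3 h, and the deletion arrays 11.94 and 11.84. The wild-type 1.5 h array alone was low for fus1, and the deletion arrays lay together above it. For spk1, wild type read 12.84 and 13.73 and the deletion 13.87 and 13.77, the same arrangement. Only map3 (1.66) and map4 (1.11) of the pheromone genes remained at least 2-fold higher at 3 h, where 1.37% of all genes were.

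Some regulators of the entry into meiosis were higher, ste11 and mei2 among them, and others lay near 0. Of 23 measured genes of the switch into meiosis, 15 lay above the floor, with a median of 0.15, 11 higher, 4 lower and 5 within 0.1 of 0. Of all genes, 44% were higher and 35.7% lay within 0.1. At least 2-fold higher were pat1, the kinase that holds meiosis back (1.37), rep1, an activator of premeiotic S phase genes (1.35), and ste7, a gene needed for conjugation (1.03). The transcription factor gene ste11 read 12.50 and 13.46 in wild type, against 13.49 and 13.56 in the deletion. The meiotic regulator gene mei2 read 13.35 and 14.05 in wild type, against 13.99 and 14.17 in the deletion. For both, wild type at 1.5 h stood below the other 3 arrays, with differences of 0.99 for ste11 and 0.64 for mei2 that shrank to 0.10 and 0.13 at 3 h. Near 0 were ste13, an RNA helicase gene (0.00), moc3 (0.07), rst2, a zinc finger activator of ste11 (-0.05), and cpc2, a ribosome-associated protein gene (-0.07).

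The genes of the nutrient pathways upstream of ste11 differed little. Of 23 genes of cAMP and TOR signalling above the floor, 11 (47.8%) lay within 0.1 log2 units of 0, against 35.7% of all genes. None reached 1.5-fold in either direction, against 4.85% and 4.5% of all genes on the higher and the lower side. The catalytic subunit of the cAMP-dependent kinase, pka1, was at 0.09, its regulatory subunit cgs1 at 0.06, the adenylate cyclase gene cyr1 at -0.11, and the TOR kinase genes tor1 and tor2 at -0.01 and -0.27. The furthest from 0 were psk1, a kinase gene, at 0.52, and the TOR partner gene mip1 at -0.31.

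Transcripts that Mmi1 sends to decay in growing cells were higher in the deletion without exception. All 20 measured targets were higher, against 44.2% of all 2899 genes, 15 were at least 2-fold higher, against 3.04%, and the median over all 20 was 1.32. Of the 11 above the floor, 10 passed it in the deletion alone, so a count over those 11 would follow from the floor. The RNA-binding protein gene spo5 read 8.65 and 13.53 in wild type, against 12.98 and 14.30 in the deletion, a 1.5 h difference of 4.33 or 20.1-fold. The meiotic cyclin gene crs1 read 8.38 and 12.52 in wild type, against 11.04 and 12.75 in the deletion, a difference of 2.66. For both, wild type at 1.5 h stood far below the other 3 arrays. Other targets above the floor were meu10, a spore wall gene (at least 3.69), num1, a cortical dynein anchor gene (at least 4.01-fold), mug8 (1.78) and the peptidase gene mde10 (1.27), and the recombination genes among them follow below. At 3 h spo5 was at 0.78, crs1 at 0.23 and meu10 at 1.92.

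The machinery that recognises and destroys those transcripts differed little in transcript level. Of 10 measured genes of Mmi1 elimination, 8 lay above the floor, with a median of -0.07, 3 higher and 5 lower, and none past 1.5-fold. The poly(A) binding gene pab2 was at -0.05, the poly(A) polymerase gene pla1 at 0.16 and the RNA elimination gene red1 at 0.26. The gene of Mmi1 itself lay below the floor on both arrays, with a difference of -0.09.

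Strand exchange and crossover genes were split, with 13 of 25 measured genes higher and 12 lower and a median of 0.03. This was near the 44.2% of all 2899 genes that were higher. Meiosis-specific members were the highest, meu13 at 1.96, a Hop2 homologue that helps strand exchange, rti1, a Rad52 homologue, at 1.72, and the meiotic recombinase gene dmc1 at 1.38. For dmc1, wild type read 8.73 and 11.68 and the deletion 10.11 and 12.02, so the deletion at 1.5 h lay between the wild-type times. Accessory genes were next, sfr1 at 0.74 and swi5 at 0.61. Mismatch repair and general recombination genes lay near 0, with msh6 at -0.01, pms1 at 0.03 and rad55 at 0.05, and the single-strand binding gene ssb2 was at -0.50. Over the 17 genes above the floor, of which 6 passed it in the deletion alone, the median was 0.39.

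Chromosome axis genes had few members above the floor, 6 of 15, among them hop1 (2.02), which codes for a linear element protein, and the checkpoint kinase gene mek1 (1.32). Wild type read 9.24 and 12.28 for hop1 at 1.5 h and 3 h, and the deletion 11.27 and 12.69. The meiotic cohesin gene rec8 (1.60), below the floor on both arrays, was also higher, while its mitotic counterpart rad21 was at -0.39 and the shared cohesin gene psm1 at 0.09. In break formation, the MRN complex genes rad50 (0.54), nbs1 (0.53) and mre11 (0.45) shifted upward by similar amounts. The list's 6 genes above the floor had a median of 0.41, with 5 higher and none at 1.5-fold, and rec14 was the lower one at -0.19. Of all genes, 44% were higher and 4.85% were at least 1.5-fold higher.

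The most extreme differences were those of spore genes. The spore coat gene isp3 read 7.99 in wild type, against 14.05 in the deletion at 1.5 h, and 13.11 and 14.51 at 3 h. Wild type at 1.5 h alone was near the level of an absent transcript, and the difference was at least 6.06, or at least 66.7-fold. Of 29 measured spore wall and spore coat genes, 23 were higher, against 44.2% of all 2899 genes, with a median of 0.41 over all 29. At least 2-fold higher were 8 of the 29, against 3.04%. In 6 of the 24 above the floor, the deletion alone passed it. The 8 were isp3, meu17, a glucosidase gene (at least 4.88), meu7 and mde5, both amylase homologues (4.02 and at least 3.79), meu10 (at least 3.69), mde10 (1.27), the glucanosyltransferase gene gas4 (1.24) and the alpha-glucan synthase gene mok14 (1.23). Cell wall genes that growing cells also use were close to 0, such as bgs1 (0.14), bgs4 (0.11), ags1 (0.01) and gas2 (-0.04).

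Unlike isp3, several spore genes were high in the deletion at both times and low in wild type at both. Wild type read 7.79 and 8.08 for meu17 at 1.5 h and 3 h, and the deletion 12.67 and 13.34. For mde5, wild type read 7.70 and 7.75 and the deletion 11.49 and 12.40. The genotypes did not overlap at either time for these genes, and the 3 h differences were at least 5.26 for meu17 and at least 4.65 for mde5. Wild type was near the level of an absent transcript at both times, so the differences of these genes have no order between the times. The forespore membrane gene meu14 had the same arrangement, at 8.02 and 8.22 in wild type, against 10.43 and 11.52 in the deletion.

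Genes named meu, for meiotic expression upregulated, were all higher, 18 of 18 measured, against 44.2% of all 2899 genes, with a median of 1.62. At least 2-fold higher were 12 of the 18, against 3.04%. Of the 11 above the floor, 9 passed it in the deletion alone, and 7 of the 11 differences are lower bounds. Genes named mug, for meiotically upregulated gene, were a broader group, with 67 of 91 measured genes higher, 24 lower and a median of 0.28. The share higher over all 2899 genes was 44.2%. The highest mug gene was mug14 at 2.61, and mug89 at -1.03 was the only meiotic gene among the 21 at least 2-fold lower.

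Above the floor, genes of the meiotic divisions and septin genes lay mostly near 0. Among 12 genes of the meiotic divisions above the floor, the median was 0.12 and crs1 was the only 2-fold member, with cdc2 at 0.07, the cyclin gene cdc13 at -0.01, the phosphatase gene cdc25 at -0.06 and the spindle checkpoint gene mad2 at -0.03. Over all 24 measured genes of the divisions, 17 were higher, against 44.2% of all 2899 genes, with a median of 0.16. At least 2-fold higher were 5 of the 24, against 3.04%, so some dim division genes were higher too. The S phase cyclin gene cig2 was at 0.75. Septins used in every cell division, spn1, spn2, spn3 and spn4, were between -0.07 and 0.14, whereas spn7, a meiotic septin gene, was at 1.36.

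**Figure D2:**
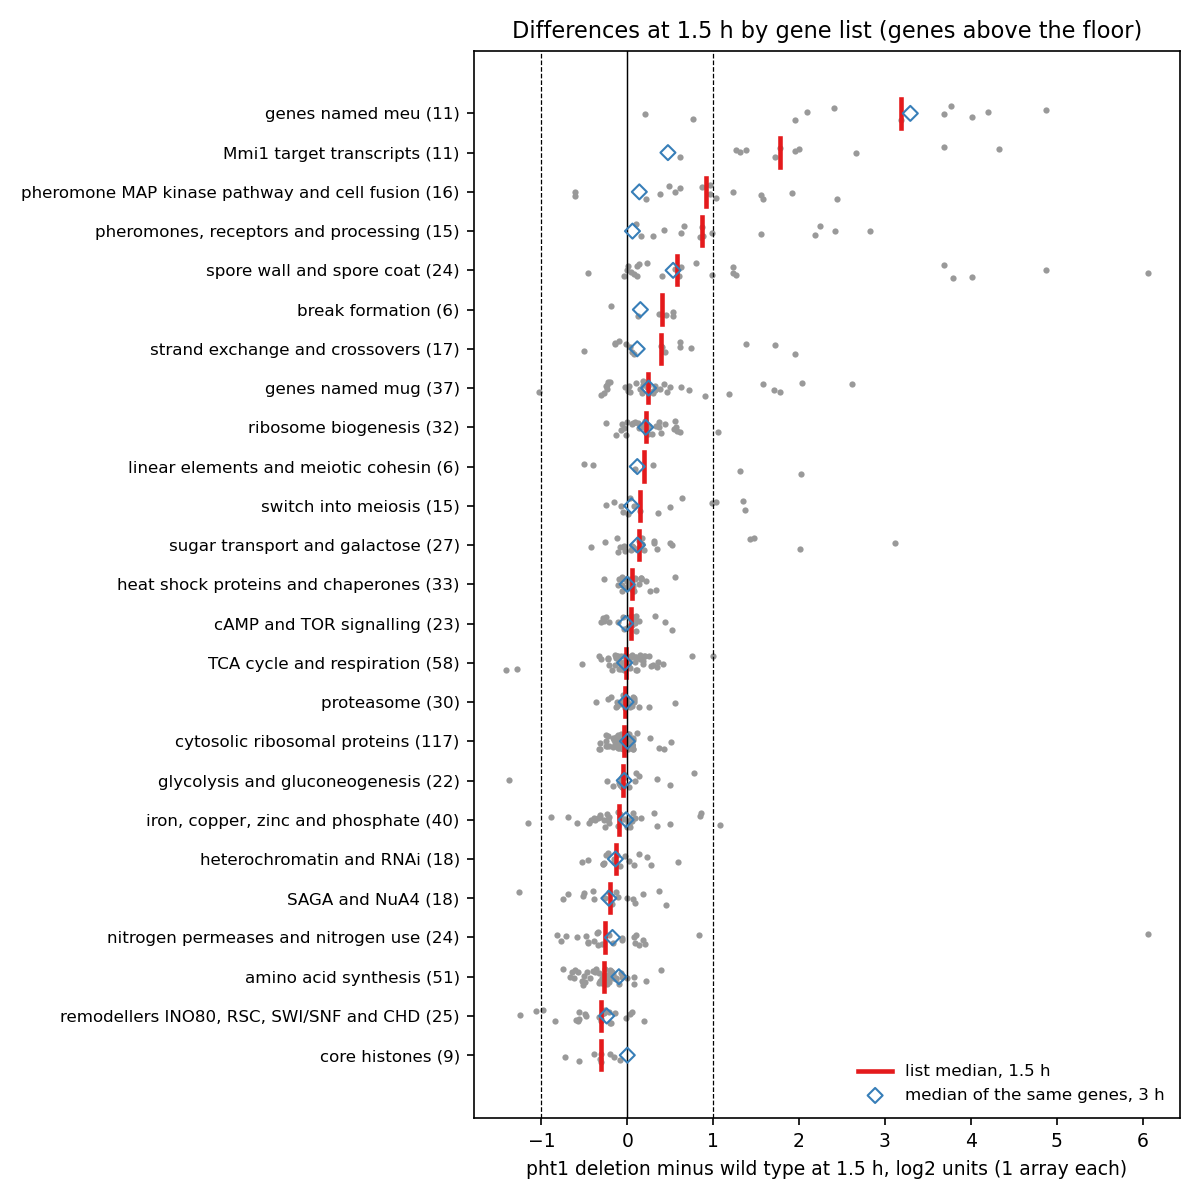
Difference of each gene above the floor (grey points, deletion minus wild type at 1.5 h in log2 units) for 25 gene lists, with the number of genes in brackets, list medians at 1.5 h as red bars and the medians of the same genes at 3 h as blue diamonds. Medians take in only genes above the floor, which 9 of the 11 meu genes and 10 of the 11 Mmi1 targets passed in the deletion alone, the Mmi1 target and pheromone medians were nearer 0 at 3 h, and the remodeller median was below 0 at both times.

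The 60 higher genes fell into groups by what happened at 3 h. In 56 of them the 3 h difference was also above 0. Of all 1026 genes higher at 1.5 h, 742 were higher at 3 h too. The median of the 60 went from 1.71 at 1.5 h to 0.64 at 3 h, and 45 had a smaller difference at 3 h. The 60 were picked by a large 1.5 h difference on 1 array each. A smaller 3 h difference can follow from that choice alone, and its part was not tested. In 23 the difference was still at least 2-fold at 3 h, and these included 8 meu genes, 7 spore wall genes and 1 Mmi1 target. Their median wild-type level was 8.85 at 1.5 h and 9.84 at 3 h, and in 12 of the 23 wild type lay under the floor at both times. The others included isp3 and map4, at 13.11 and 12.97 in wild type at 3 h, and zym1, gas4 and mok14, for which wild type was above the floor at both times. In 27 the difference lay within 0.5 log2 units of 0 at 3 h, and these included 5 Mmi1 targets, 5 genes of the pheromone pathway and cell fusion, and no meu or spore wall gene. Their median wild-type level was 10.58 at 1.5 h and 12.52 at 3 h, against 12.32 and 12.83 in the deletion. Wild type at 1.5 h was thus the low array, but the 27 were picked by a large 1.5 h and a small 3 h difference. The other 10 lay between, with 3 h differences from 0.5 to 1.

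In 15 of the 60 genes the measured difference was larger at 3 h than at 1.5 h. For 8 of them a wild-type value lay under 8.37 and the order of the times is not settled, and the other 7 were gas4, mok14, meu7, mug109, mug110, spn7 and zym1. For gas4, wild type read 11.69 and 11.68 at 1.5 h and 3 h, and the deletion 12.93 and 13.34. For mok14, wild type read 11.51 and 11.53 and the deletion 12.74 and 13.35. Wild type was level between the times for both genes, and the genotypes did not overlap.

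**Figure D3:**
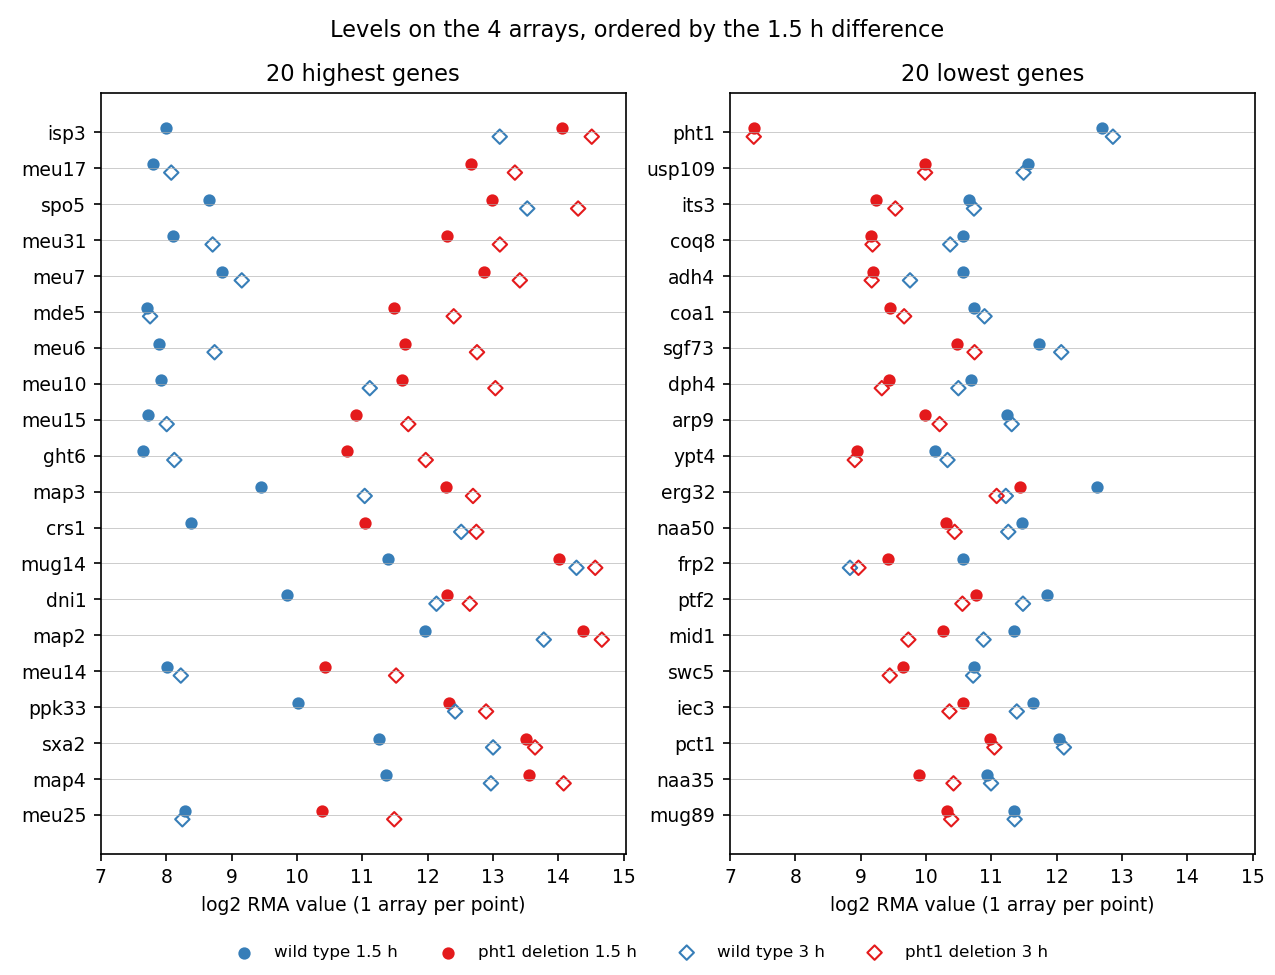
Levels on all 4 arrays (log2 RMA values, 1 array per point) of the 20 genes with the highest and the 20 with the lowest 1.5 h difference, with filled circles for 1.5 h, open diamonds for 3 h, blue for wild type and red for the deletion. On the left, isp3, spo5, crs1 and mug14 have only the wild-type 1.5 h point low, while meu17, meu31, mde5 and meu15 have both wild-type points low, and on the right most genes have both deletion points below both wild-type points.

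Sugar genes were the main non-meiotic group among the highest. Of 27 genes of sugar transport and galactose use above the floor, 19 were higher, against 44% of all genes, and the median was 0.13. Past 2-fold were 4 of them, against 2.57% of all genes. Of these 4, 3 (ght6, mel1 and gal10) passed the floor in the deletion alone, where they were high. Over all 28 measured genes, 20 were higher and the median was 0.14. The hexose transporter gene ght6 read 7.65 and 8.12 in wild type, against 10.77 and 11.97 in the deletion, a 1.5 h difference of at least 3.12. The alpha-galactosidase gene mel1 read 9.59 and 9.22 in wild type, against 11.60 and 10.71 in the deletion. The galactose gene gal10 was at 1.48 and the transporter gene ght3 at 1.43. All 4 were higher in the deletion at 3 h too, by at least 3.85 for ght6, 1.50 for mel1, 1.47 for gal10 and 0.85 for ght3. Other members were near 0, such as the glucose transporter gene ght5 (0.06), the AMP-activated kinase gene ssp2 (-0.11) and the invertase gene inv1 (-0.09).

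A small mitochondrial group, put together after values were seen, was higher at 1.5 h, and its succinate dehydrogenase genes were slightly lower at 3 h. The iron-sulfur subunit gene of succinate dehydrogenase, sdh2, read 11.23 and 13.57 in wild type, against 12.23 and 13.30 in the deletion. The gene tim18, whose older name is sdh4, read 10.58 and 13.25 in wild type, against 12.32 and 12.83 in the deletion. The membrane anchor gene sdh3 was at 0.76 and the flavoprotein gene sdh1 at 0.26. All 4 genes of this enzyme were thus higher at 1.5 h, by 1.00 for sdh2 and 1.73 for tim18, and their 3 h differences were all below 0, from -0.27 for sdh2 to -0.42 for tim18. Beside them, the iron-sulfur assembly gene isa1 was at 1.17, the gene aif1 at 1.33, cytochrome c (cyc1) at 0.36 and citrate synthase (cit1) at 0.34. Over the whole list of the TCA cycle and respiration, 27 of 58 genes were within 0.1 of 0, against 35.7% of all genes, and the median was -0.02. Lower were 33 of the 58, against 56% of all genes. At least 2-fold lower were coq8 (-1.41 at 1.5 h and -1.19 at 3 h) and coa1 (-1.28 and -1.23).

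Ribosome biogenesis genes showed a small common shift upward. Of 32 above the floor, 25 were higher and 7 lower at 1.5 h, against 44% of all genes higher, with a median of 0.21. At 3 h 28 were higher, against 46.5% of all genes, with the same median of 0.21. The nucleolar gene gar2 (1.05) was the only one at 2-fold, followed by the RNA helicase genes has1 (0.61) and dbp2 (0.55) and the assembly genes nop16 (0.58) and ebp2 (0.57). The median was 0.18 with a floor at the array median. Cytosolic ribosomal protein genes did not share the shift, with a median of -0.04.

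The lower side was made of small, steady differences. The 21 genes had a median of -1.18 at 1.5 h and -1.10 at 3 h. At 3 h 20 were lower as well, and 13 were at least 2-fold lower, where 0.858% of all genes were. Of all 1305 genes lower at 1.5 h, 963 were lower at 3 h too. For many of the 21, pht1, usp109, its3, coa1 and ypt4 among them, the deletion array lay under the floor at 1.5 h. Such genes were counted through the wild-type array, where they were high. Without a floor, 23 genes were at least 2-fold lower. After pht1 the lowest was usp109, a gene of the U1 snRNP, which read 11.56 and 11.49 in wild type, against 9.99 and 9.99 in the deletion. The genotypes stood apart at both times for usp109, and the times did not. The SAGA deubiquitination gene sgf73 read 11.73 and 12.07 in wild type, against 10.47 and 10.74 in the deletion. The Rab GTPase gene ypt4 read 10.14 and 10.33 in wild type, against 8.94 and 8.91 in the deletion. The same arrangement held for its3, a phosphatidylinositol phosphate kinase gene (-1.43), coa1 of cytochrome oxidase assembly (-1.28), the diphthamide gene dph4 (-1.25) and pct1, an mRNA capping phosphatase gene (-1.06).

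A few lower genes had a difference at 1.5 h alone. The sterol desaturase gene erg32 read 12.61 and 11.22 in wild type, against 11.44 and 11.08 in the deletion, so wild type at 1.5 h was the high array. The ferric reductase gene frp2 read 10.57 and 8.84 in wild type, against 9.42 and 8.97 in the deletion, a difference of -1.15 at 1.5 h and 0.13 at 3 h. Other iron uptake genes stood with it, the siderophore synthesis gene sib2 at -0.89, the iron oxidase gene fio1 at -0.69 and the permease gene fip1 at -0.58. The zinc-binding metallothionein gene zym1 was higher, at 1.08. Over all 40 metal and phosphate genes above the floor the median was -0.09, with 25 lower (62.5%, against 56% of all genes) and 15 higher.

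Chromatin remodeller genes were lower as a group. Of 25 genes of the INO80, RSC, SWI/SNF and CHD remodellers above the floor, 22 were lower, against 56% of all genes, 5 were at least 1.5-fold lower, against 4.5%, and the median was -0.31. Wild type alone passed the floor for 3 of the 25, arp9 among them, so these were bound to be lower. Over all 32 measured genes, 27 were lower and the median was -0.30. The largest differences were in arp9, an actin-related subunit of RSC and SWI/SNF (-1.25), iec3 of INO80 (-1.07), ssr1 (-0.98), a subunit shared by RSC and SWI/SNF, and rsc4 of RSC (-0.84). For arp9, wild type read 11.24 and 11.31 and the deletion 9.99 and 10.21. The genotypes did not overlap for arp9, and all 22 lower genes were lower at 3 h too, when the median of the 25 was -0.24. Among all 1305 genes lower at 1.5 h, 963 were lower at both times. Among the ATPase genes the differences were small, with ino80 at -0.21, snf21 at -0.19, snf22 at 0.04 and hrp1 at -0.31.

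Histone acetylation complexes were lower by less. In SAGA and NuA4, 13 of 18 genes above the floor were lower, against 56% of all genes, with a median of -0.20 at 1.5 h and -0.21 at 3 h. Wild type alone passed the floor for 3 of the 18, and over all 25 measured genes 19 were lower. After sgf73 came spt20, a SAGA core gene (-0.75), and vid21, the NuA4 scaffold gene (-0.69), while the deubiquitinase gene ubp8 (0.45) and the acetyltransferase gene mst1 (0.37) were higher. Of the SWR1 genes, whose products put H2A.Z into chromatin, 14 were above the floor with pht1 counted among them, and the median was -0.09. The subunit gene swc5 read 10.74 and 10.72 in wild type, against 9.65 and 9.45 in the deletion, lower at both times, but the ATPase gene swr1 was at 0.24, swc4 at 0.14, vps71 at 0.28 and arp6 at -0.11. Heterochromatin and RNAi genes had a median of -0.14 over 18, with the HP1 gene swi6 at -0.12, arb1 at -0.52, ago1 at 0.28 and arb2 at 0.59.

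Core histone genes were lower at 1.5 h but not at 3 h. All 9 above the floor were lower, against 56% of all genes, with a median of -0.31, and the median of the same 9 at 3 h was 0.00. The H4 gene hhf1 read 13.86 and 13.37 in wild type, against 13.13 and 13.36 in the deletion. Wild type at 1.5 h was thus the high array and the others were alike. The H3 genes hht1 and hht2 were at -0.57 and -0.08, the H2A genes hta1 and hta2 at -0.30 and -0.32, and the H2B gene htb1 at -0.20. A second probe set of hhf1 was at -0.54 and a second one of hht1 at -0.56. Histone genes of a type are near-identical and their probe sets can read each other, so differences between copies are uncertain.

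Amino acid synthesis genes were shifted down together and by a moderate amount. Of 51 above the floor, 47 were lower, against 56% of all genes, with a median of -0.27. At least 1.5-fold lower were 5, against 4.5% of all genes, and none reached 2-fold. The 5 were his3 (-0.74), met6 (-0.66), ilv1 (-0.65), lys1 (-0.62) and arg7 (-0.61), from the pathways of histidine, methionine, isoleucine, lysine and arginine. For his3, wild type read 12.89 and 12.25 and the deletion 12.14 and 12.06, so wild type at 1.5 h was the high array. At 3 h 41 of the 51 were lower, against 53.5% of all genes, with a median of -0.10. Lower at both times were 38 of the 51, against 963 of all 2331 genes. The marker genes his5 and leu1, for which both genotypes carried a mutant allele on 1 homologue, were at 0.22 and -0.00, and glt1, glutamate synthase, was the highest at 0.40.

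Nitrogen permease and nitrogen use genes followed the same direction with more spread. Over 24 genes above the floor the median was -0.26, with 16 lower (66.7%, against 56% of all genes) and 8 higher. Lower were car1, an arginase gene (-0.82), aes1 (-0.77), the amino acid permease gene isp5 (-0.72) and the ammonium transporter genes amt1 and amt2 (-0.59 and -0.45). The list also held isp3, described above with the spore coat, and without a floor or with a floor at the array median its median was -0.19. In the list of purine, pyrimidine and thiamine synthesis, 22 of 33 genes (66.7%) were lower, against 56% of all genes, with a median of -0.06. The 9 ade genes of purine synthesis above the floor, a group formed after their values were seen, were all lower, from ade7 at -0.67 to ade2 at -0.11. Below the floor ade9 was at 0.37, and the guanine gene gua1 was at 0.26. The biotin genes bio2 and vht1 were at -0.95 and -0.75.

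Moderate differences, from 1.5-fold to under 2-fold, were found for 53 higher and 84 lower genes. The moderately higher ones were again often meiotic, with 26 of the 53 in a meiotic or sporulation list, against 2 of the 84 lower ones. At 3 h, 44 of the 53 and 81 of the 84 had the same direction, with medians of 0.30 and -0.52. Of all genes, 742 of the 1026 higher at 1.5 h and 963 of the 1305 lower at 1.5 h had the same direction at 3 h. Among the moderately higher genes with the brightest probe sets were rgs1, a regulator of the pheromone G protein (0.97), the agglutinin gene mam3 (0.99), gpa1, mam2, mei2 and the catalase gene ctt1 (0.86). On the lower side these were obr1 (-0.62), bfr1, a drug export pump gene (-0.64), and dph5 of diphthamide synthesis (-0.66). For obr1, wild type read 14.54 and 14.56 and the deletion 13.92 and 13.85, with no overlap between the genotypes.

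In mRNA decay, the exosome and export, 45 of 56 genes were lower, against 56% of all genes, with a median of -0.14, the lowest being the nuclear pore genes ely5 (-0.96), nup61 (-0.83) and nup85 (-0.64). Spliceosome genes were like all genes in direction, with 41 of 73 lower and a median of -0.03. At least 1.5-fold lower were 6 of the 73, against 4.5% of all genes, and none was as much higher, against 4.85%. The 6 were usp109, smd2 (-0.87), cwf21 (-0.82), cwf14 (-0.65), cwf15 (-0.59) and sap114 (-0.59). Wild type alone passed the floor for 5 of the 73, usp109 among them. Genes of septation were mixed, with the medial ring gene mid1 at -1.09, adg1 at -0.94, cdc15 at -0.44 and the light chain gene rlc1 at 0.33. As markers of dividing cells, mid1, etd1, adg1 and eng1 had a mean log2 level of 10.80 in wild type, against 10.14 in the deletion at 1.5 h, and 9.77 and 8.97 at 3 h. Of these 4, etd1 was higher at 1.5 h (0.07), and eng1 lay below the floor. The septation gene adg2, not among these markers, was higher by 0.46 at 1.5 h and by 0.52 at 3 h. Over the 26 septation genes above the floor, 16 were lower, against 56% of all genes, with a median of -0.10. The part of dividing cells in the other differences was not tested. The 4 sporulation markers, isp3, mde5, meu17 and spo6, had mean levels of 7.73 in wild type and 11.92 in the deletion at 1.5 h. At 3 h these were 9.15 and 12.76. All 4 wild-type values at 1.5 h were under 8.37, so the gap at 1.5 h is a lower bound. Since isp3, mde5 and meu17 were among the 20 highest genes and spo6 lay below the floor, these means do not stand for spore genes at large. The median over all 29 spore wall and spore coat genes was 0.41.

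Large parts of the expressed genome were nearly equal between the genotypes. Within 0.1 log2 units of 0 lay 833 genes (35.7%), a narrow band that 1 array per group cannot show to be free of change. At 3 h, 825 of the 833 lay within 0.5 of 0 and 536 (64.3%) within 0.1, against 43.8% of all 2331 genes, and none was 2-fold different. The share within 0.1 increased with level, from 23.0% in the dimmest 25% of genes to 30.7% and 33.8% in the next groups of that size and 55.4% in the brightest. Probes near the top of the scale respond less to a change in RNA, and the part of this in the larger share among bright genes was not tested.

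Ribosomal protein genes were the largest such group. Of 117 above the floor, 85 (72.6%) lay within 0.1 and 110 were in the brightest 25% of genes. None reached 1.5-fold, against 4.85% and 4.5% of all genes on the higher and the lower side. The furthest from 0 were rps1401 at 0.51 and rpl502 at -0.33. Of the 110 bright genes, 84 (76.4%) lay within 0.1, against the 55.4% of that bright group as a whole. The proteasome followed with 21 of 30 (70.0%), heat shock proteins and chaperones with 23 of 33 (69.7%), glycolysis and gluconeogenesis with 14 of 22 (63.6%), and translation factors and tRNA synthetases with 20 of 40. In glycolysis the exceptions were the alcohol dehydrogenase gene adh4 (-1.37) and the enolase gene eno102 (0.78), while the bright triose phosphate isomerase and enolase genes tpi1 and eno101 were at -0.04 and -0.02.

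**Figure D4:**
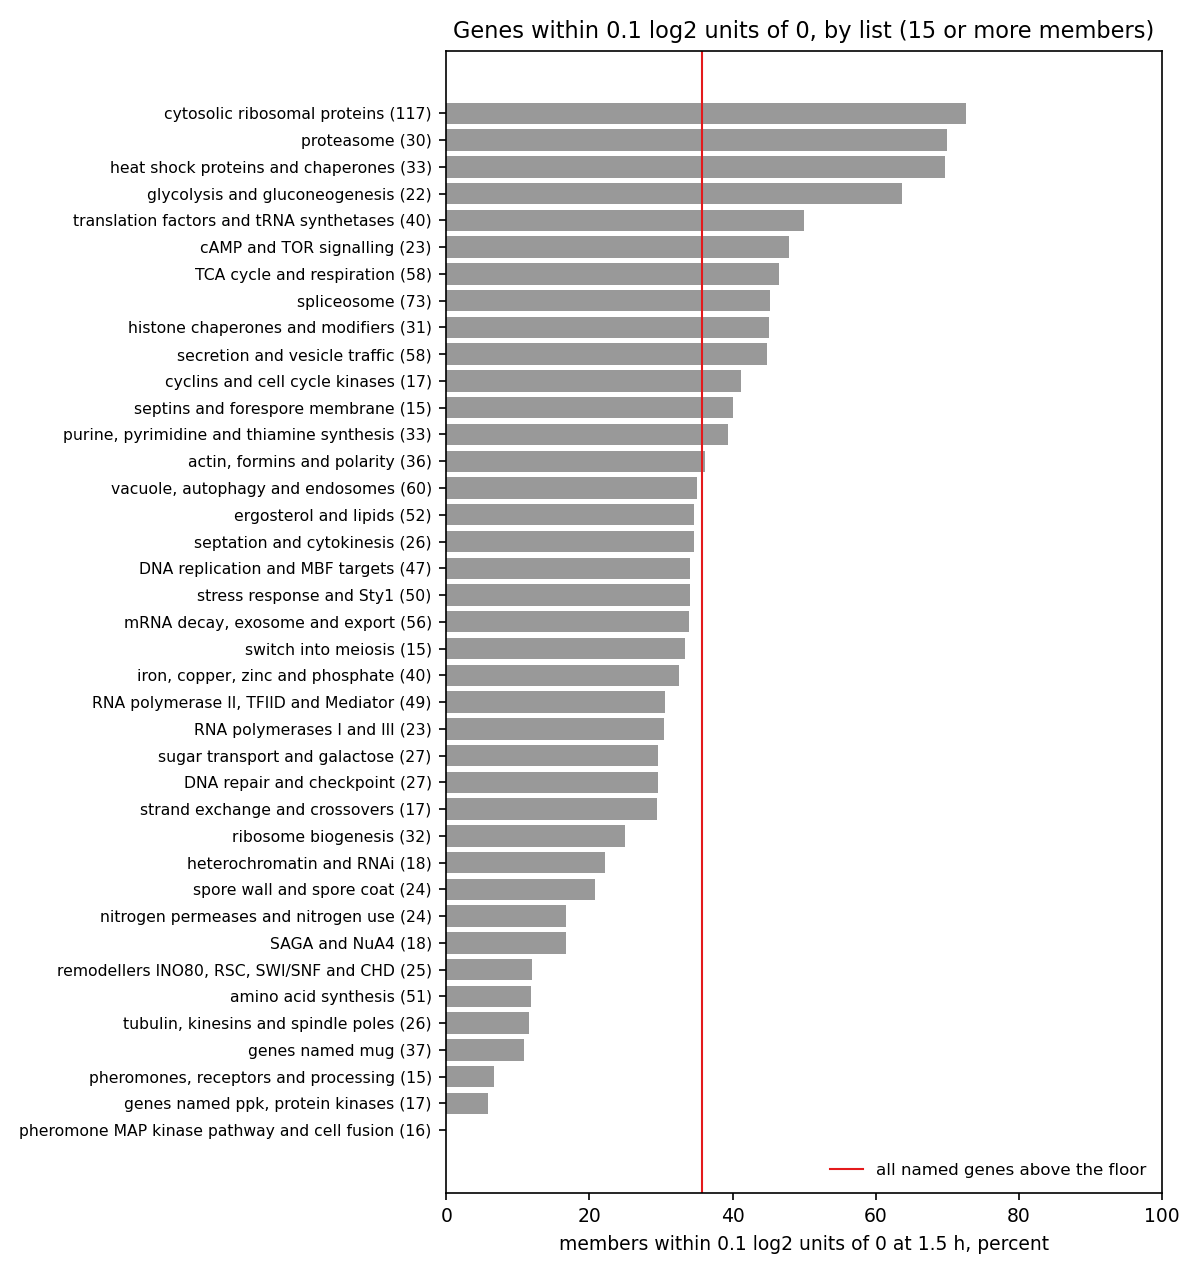
Percent of the genes above the floor in each list (15 or more such genes, number in brackets) whose difference at 1.5 h lay within 0.1 log2 units of 0, with the 35.7% of all named genes as a red line. Ribosomal protein, proteasome and chaperone genes were near 70% and above, and no gene of the pheromone MAP kinase pathway lay within 0.1.

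Some other lists were near the background share of 35.7%. Vacuole, autophagy and endosome genes had 21 of 60 (35.0%) within 0.1, with atg17, an autophagy scaffold gene, at 0.35 and vps8 at -0.51 as the furthest. None of the 60 was past 1.5-fold, against 4.85% and 4.5% of all genes on the higher and the lower side. Secretion and vesicle traffic had 26 of 58 (44.8%) within 0.1 and ypt4 as its only 2-fold member. Replication genes held 16 of 47 (34.0%) within 0.1 and a median of -0.04, with orc2 at -0.00 and mcm2 at -0.05, while the licensing gene cdc18 was at -0.59 at 1.5 h and 0.50 at 3 h. Among the genes with the brightest probe sets, the thiamine genes nmt1 and thi2 and the uracil-regulated gene urg1 read 14.84, 14.78 and 14.79 in wild type, against 14.79, 14.80 and 14.77 in the deletion, each within 0.1.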

How the data were processed

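For every array the authors deposited log2 values, 1 for each probe set. Per the submitters' processing notes these come from RMA, whose version is not given in the sources used here, nor which arrays were normalised together. Probe sets were named from the platform annotation: 2917 had 1 symbol, 20 had several and 2062 were unnamed here. By gene identifier, 2914 matched RefSeq assembly ASM294v3, used for names and gene order, and 110 symbols were updated. A gene with several probe sets (14 genes) took the set with the highest mean over all 4 arrays.

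Each difference is 1 array minus 1 array, with no test. Genes above the floor were counted at 2-fold and 1.5-fold, and within 0.1 log2 units of 0. The 57 gene lists share members. Members and lists were chosen with earlier results of these data known, and 29 list entries matched through an older or reused symbol were taken out after values were seen. Genes named by rule were pht1, ura4, the 20 highest and 20 lowest genes, list members past 2-fold, furthest from 0 or closest to it, the 10 brightest near-equal and moderately changed genes each way, genes with several probe sets and neighbours of pht1. Other members were named after their values were seen, to fill in their pathway. The steps were tested on simulated data. Alternatives covered the floor, the scaling, the probe set and the thresholds. The work was done in Python 3.11.15 with pandas 2.3.3 and numpy 2.4.6, lowess came from statsmodels 0.14.6, and plots from matplotlib 3.10.9.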

Additional observations from a re-analysis of the deposited data

Results flagged for a closer look

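The copper transporter gene ctr4 differed in opposite directions at the 2 times, by 0.85 at 1.5 h and by -1.42 at 3 h. The difference between the times was not tested, since each value rests on 1 array a group. Probe sets without a gene name entered no comparison. There were 1560 such probe sets with a value above the floor. Of them, 15 (0.962%) passed 2-fold on the higher side of the deletion at 1.5 h and 20 (1.28%) on the lower side, with differences between -2.97 and 2.96.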

How the results depend on the processing

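The 60 higher and 21 lower genes became 38 and 11 with a floor at the array median, 32 and 1 at a 3-fold threshold, and 113 and 105 at 1.5-fold. With no floor, quantile normalisation of both arrays, a lowess trend removed, centring on the median, or the mean over probe sets, both counts stayed within 1.5 times. Near-equal genes were 833 within 0.1 and 1340 within 0.2 log2 units. Lists with a median of 0.2 or more were 9, and 5 with a floor at the array median. Over 322 recomputed list medians, 313 moved by less than 0.23 log2 units, a robust SD of the differences over genes, 9 moved by more and 0 of the lists at 0.2 or beyond changed sign. Under a floor at the array median or no floor, the strand exchange median was 0.03, ribosome biogenesis 0.18 and 0.20, and nitrogen genes -0.19. The cause was not tested. No paired analysis was possible because each group has 1 array and no replicate could be left out. Promoter motifs and the orientation of neighbours, which were planned, were not analysed here. Probe sets near the top or the bottom of the scale limit how far their differences can be read.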

Other observations

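Genes below the floor on both 1.5 h arrays numbered 568, of which 28 were at least 2-fold higher in the deletion, 2 at least 2-fold lower, and 87 read under 8.37 on both arrays. The proton pump gene pma2 read 7.45 and 7.47 in wild type, against 10.02 and 10.80 in the deletion. The meiotic kinase regulator gene spo6 read 7.44 and 7.68 in wild type, against 9.46 and 10.81 in the deletion. Wild type was low at both times for both, so the differences at 1.5 h are at least 2.57 for pma2 and at least 2.02 for spo6. Genes of nuclear movement in meiotic prophase were also among the dim ones, with tht1 of nuclear fusion at 1.55, the dynein heavy chain gene dhc1 at 1.50, mcp6 at 1.20 and the bouquet gene bqt1 at 1.12. The cohesin gene rec11 was at 1.89 and the linear element gene rec10 at 1.32.

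Along the chromosomes, genes at least 2-fold higher were 2.73%, 2.47% and 2.43% of the genes of chromosomes I, II and III, close to the 2.57% of all genes, and those at least 2-fold lower were 0.564%, 1.01% and 1.62%. Of 39 higher genes with a measured adjacent gene, 8 (20.5%) had one that was also at least 2-fold higher, against 49 of 1643 genes (2.98%). These 8 formed 4 pairs, crs1 with mug110, pcm2 with mel1, sdh2 with gar2, and ubp11 with pat1. Of 14 lower genes, 0 had such a lower neighbour, against 17 of 1643 (1.03%). Within 50 protein-coding genes of a chromosome end, 6 of 68 genes (8.82%) passed 2-fold on the higher side and 1 on the lower. The 14 genes with several probe sets gave a median gap of 0.14 between their sets' differences, with a largest gap of 0.78.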
